A study of Rattus norvegicus with 12 samples.

Results

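The genes that move zinc, copper and iron into, out of and within cells were read in rat retina after an intravitreal injection of NMDA. They were chosen by name among the protein coding entries of the deposited table, by a rule that uses no measured value but was set with earlier results of these data known. The choice took every Slc30a and Slc39a zinc transporter, the metallothioneins Mt1, Mt2A and Mt3, the regulator Mtf1, 6 copper genes and 14 entries of iron and haem genes. It found 48 of 30560 entries, under 46 symbols, of which 28 entries belonged to zinc, 6 to copper and 14 to iron. Ftl1 had 3 entries, on chromosomes 1, 5 and 10. Slc40a1, which encodes the iron exporter ferroportin, was not analysed here.

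The NMDA group was 6 rats with 2 µL of 20 mM NMDA injected into the vitreous, and the PBS group was 6 rats with 2 µL of PBS. NMDA activates 1 class of glutamate receptor, and its injection is used as a model of the ganglion cell injury of glaucoma. Retinal total RNA was sequenced, 1 library per rat, and the libraries are called NMDA 1 to NMDA 6 and PBS 1 to PBS 6 after the numbers in their labels. Strain, age, sex and the time from injection to collection are not given in the sources used here.

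Zinc leaves the cytosol through the ZnT (Slc30a) proteins and enters it through the ZIP (Slc39a) proteins, while metallothioneins bind zinc and copper through their cysteines. The transcription factor encoded by Mtf1 switches some metallothionein genes and Slc30a1 on when cytosolic zinc is high. Copper enters through Slc31a1, and chaperones hand it to enzymes and to the pumps Atp7a and Atp7b. Iron reaches cells on transferrin, crosses the endosome through Slc11a2, is stored in ferritin shells of heavy and light chains, and is freed from haem by haem oxygenases. The iron regulatory proteins bind the mRNAs of ferritin and of the transferrin receptor and set their translation and stability. In the retina, zinc is plentiful in photoreceptors and pigment epithelium, and iron is needed for the enzymes of the visual cycle and of membrane synthesis.

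The DNA motif that the Mtf1 protein reads is the metal response element, and the promoters of the metallothionein genes and of Slc30a1 are shown because these genes did not move together. The letters TGCACNC and TGCGCNC were searched on both strands in the 250 bases before the RefSeq start of each gene, with overlapping matches counted once. Capitals mark the matches, and a match on the other strand reads as GNGTGCA or GNGCGCA. All sequences are from RefSeq on build GRCr8, written in the direction of the gene. The Mt1 promoter lies on the minus strand at chr19:10832976-10833225, that of Mt2A on the minus strand at chr19:10838709-10838958, that of Mt3 on the minus strand at chr19:10856081-10856330, and that of Slc30a1 on the plus strand at chr13:106021769-106022018.
Mt1: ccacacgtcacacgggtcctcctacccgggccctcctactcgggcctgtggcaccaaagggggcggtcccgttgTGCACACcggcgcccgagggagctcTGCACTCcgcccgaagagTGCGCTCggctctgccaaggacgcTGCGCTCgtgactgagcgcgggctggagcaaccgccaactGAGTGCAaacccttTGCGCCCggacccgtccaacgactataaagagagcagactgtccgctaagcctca
Mt2A: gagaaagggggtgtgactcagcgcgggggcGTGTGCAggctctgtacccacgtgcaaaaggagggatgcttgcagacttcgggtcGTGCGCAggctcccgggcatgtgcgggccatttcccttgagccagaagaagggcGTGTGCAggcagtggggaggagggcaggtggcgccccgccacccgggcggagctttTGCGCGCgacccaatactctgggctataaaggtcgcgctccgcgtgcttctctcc
Mt3: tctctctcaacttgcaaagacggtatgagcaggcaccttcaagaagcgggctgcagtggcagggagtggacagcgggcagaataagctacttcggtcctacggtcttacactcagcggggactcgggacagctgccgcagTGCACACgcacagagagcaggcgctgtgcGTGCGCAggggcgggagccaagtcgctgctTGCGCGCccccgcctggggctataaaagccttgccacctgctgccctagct
Slc30a1: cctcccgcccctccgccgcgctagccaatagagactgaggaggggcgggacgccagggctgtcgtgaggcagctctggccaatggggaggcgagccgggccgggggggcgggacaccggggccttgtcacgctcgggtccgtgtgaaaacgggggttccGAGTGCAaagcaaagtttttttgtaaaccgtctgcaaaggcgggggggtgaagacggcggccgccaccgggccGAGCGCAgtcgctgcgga

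Mt1 held 6 separate matches, Mt2A 4, Mt3 3 and Slc30a1 2. Among all 33469 promoters of the same length, 20.6% held at least 1 match, 3.99% at least 2, 0.732% at least 3, 0.128% at least 4 and 0.0239% at least 6. Promoters were found for 37 of the 46 symbols, and 18 of those held at least 1 match. Slc39a7, which encodes a zinc transporter of the endoplasmic reticulum, was the other one of 4 symbols with 3 or more. A match describes these letters and does not show that the factor binds there.

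**Figure D1:**
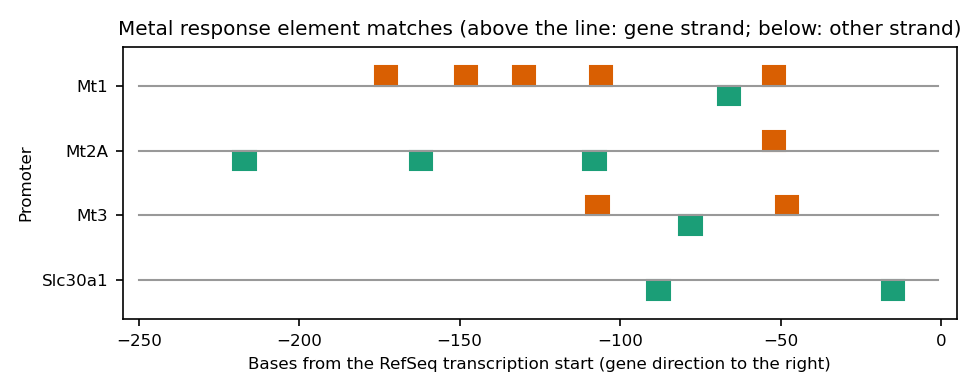
Positions of metal response element matches in the 250 bases before the RefSeq start of Mt1, Mt2A, Mt3 and Slc30a1; the x axis is the distance from the start in bases, blocks above the line are on the strand of the gene and blocks below it are on the other strand. Mt1 has 6 blocks, Mt2A 4, Mt3 3 and Slc30a1 2.

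Total counts were 26298655 to 34022023 per NMDA library and 16415611 to 31057161 per PBS library. Markers of retinal cell types were read in the same libraries. Of 10 ganglion cell markers 9 fell, with a summed level of 206 to 543 CPM (counts scaled to a common library total, with TMM factors) in NMDA libraries and 783 to 941 CPM in PBS libraries. All 10 microglia and macrophage markers rose, with sums of 117 to 251 CPM in NMDA libraries and 60.2 to 93.3 CPM in PBS libraries. Of 10 Müller glia markers 3 rose and 5 fell (4330 to 5220 CPM with NMDA and 5220 to 6810 CPM with PBS), and of 10 rod markers 6 fell (36300 to 51700 CPM with NMDA and 50000 to 53200 CPM with PBS). Of 9 pigment epithelium markers 4 fell, with sums of 40.4 to 715 CPM in NMDA libraries, highest in NMDA 3, and 163 to 528 CPM in PBS libraries, highest in PBS 5. Those that fell were Rpe65, Rgr, Ttr and Lrat, each with every NMDA library below every PBS library. Dct, Pmel, Tyrp1 and Mlana did not pass and made the high sums of NMDA 3 and PBS 5. In these 2 libraries Dct had 298 and 191 CPM and Pmel 184 and 123 CPM. Of 8 endothelium and blood markers 5 rose (293 to 418 CPM with NMDA and 203 to 287 CPM with PBS), and of 10 lens markers 0 passed in edgeR, 0 of them with an unadjusted p under 0.05 (62.3 to 2760 CPM with NMDA and 522 to 2420 CPM with PBS). No marker of these lists was at 0 in all 12 libraries. Over all 16260 genes tested, 37.9% changed, 20.4% higher and 17.5% lower. In bulk retina, fewer cells of a type and less RNA per cell cannot be told apart, which holds for every gene below.

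Some entries differed in steps between libraries, in both groups, and are described before the comparison. They were singled out after their values were seen. Slc39a7 had 82.6, 83.5, 0.029, 65.0, 87.5 and 88.1 CPM in NMDA 1 to NMDA 6, against 70.2, 0.118, 61.5, 45.3, 80.6 and 71.4 CPM in PBS 1 to PBS 6. Hsd17b8, a steroid dehydrogenase gene whose deposited interval overlaps that of Slc39a7, had 50.7, 51.4, 131, 56.2, 51.4 and 48.3 CPM in the NMDA libraries, against 48.6, 110, 43.7, 65.2, 42.0 and 46.3 CPM in the PBS libraries. NMDA 3 and PBS 2, which nearly lacked Slc39a7, were thus the highest of their groups for Hsd17b8. Summed, both entries had 133 ± 6.18 CPM with NMDA and 114 ± 6.56 CPM with PBS (SD, n = 6 each), and the sum rose by 0.22 ± 0.05 on the log2 scale (SE of the fit; edgeR adjusted p = 0.00234). Slc39a7 alone gave 0.30 ± 0.94 (edgeR adjusted p = 0.836), and its value moved with the libraries and the tool used. It was 0.57 without NMDA 3 (adjusted p = 0.568), 0.04 without PBS 2 (adjusted p = 0.975), 0.31 without both (adjusted p = 0.123), 0.71 without NMDA 3 and PBS 5 (adjusted p = 0.515), 1.03 with limma voom and quality weights (adjusted p = 0.705) and -0.86 with a pigment epithelium covariate (adjusted p = 0.728). Slc30a4 had 20.7, 83.6, 76.1, 19.9, 77.9 and 83.6 CPM in NMDA libraries, against 73.7, 22.1, 82.9, 77.9, 79.1 and 79.0 CPM in PBS libraries. Slc39a9 had 33.0, 32.4, 34.9, 34.3, 67.2 and 65.8 CPM in NMDA libraries, against 30.8, 59.3, 34.2, 28.6, 31.9 and 30.2 CPM in PBS libraries. Neither Slc30a4 (-0.20 ± 0.43, adjusted p = 0.762) nor Slc39a9 (0.32 ± 0.25, adjusted p = 0.359) passed in edgeR, and both values rested on single libraries. Slc30a4 had -0.03 without NMDA 1, -0.01 without NMDA 4, -0.31 without NMDA 2 or NMDA 6, -0.38 without PBS 2, -0.46 without NMDA 3 and PBS 2, and 0.12 with a pigment epithelium covariate. Slc39a9 had 0.16 without NMDA 5, 0.17 without NMDA 6, 0.52 without PBS 2 and 0.58 without NMDA 3 and PBS 2. None of these passed. The sources used here do not give how reads were counted that match more than 1 place or lie where genes overlap.

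**Figure D2:**
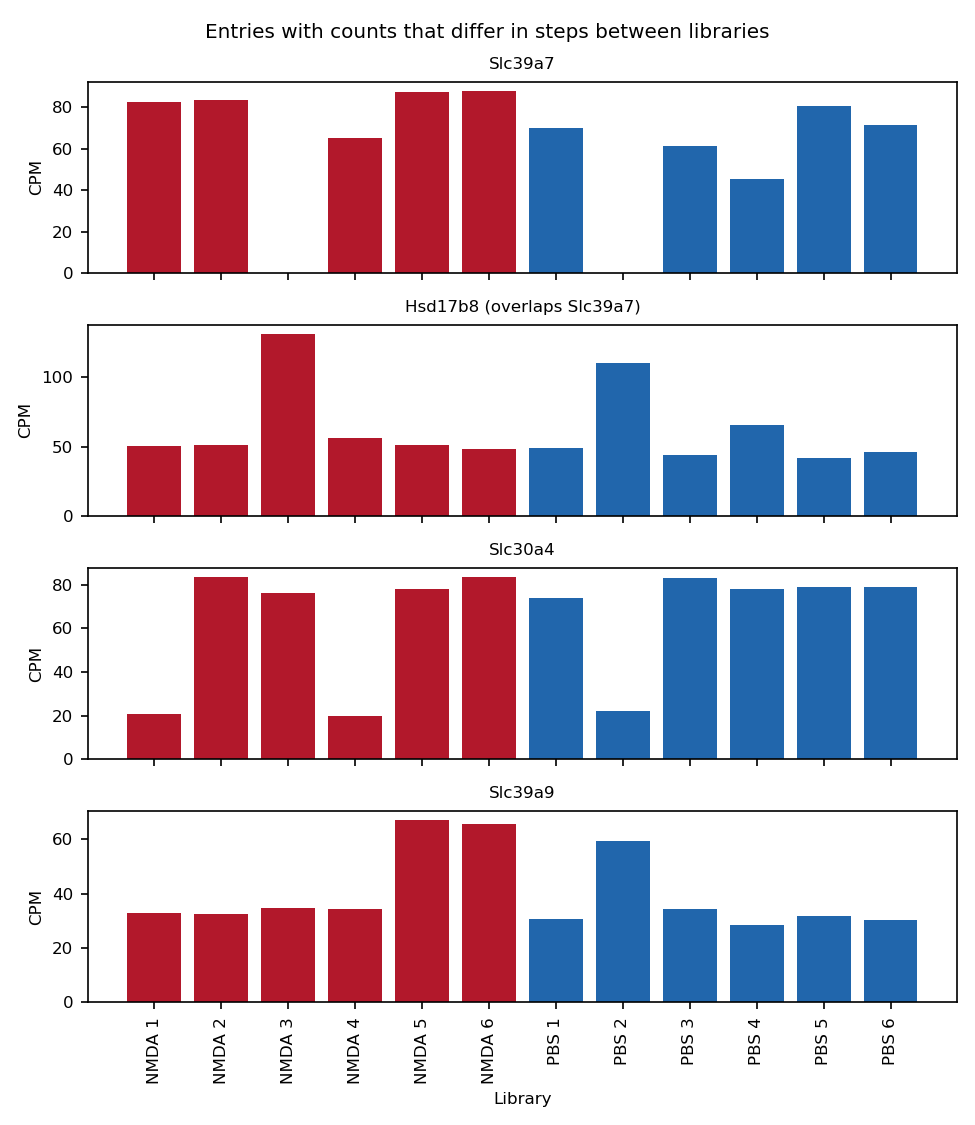
CPM of Slc39a7, the overlapping Hsd17b8, Slc30a4 and Slc39a9 in each library (bars; NMDA 1 to NMDA 6 in red at the left, PBS 1 to PBS 6 in blue at the right). NMDA 3 and PBS 2 are near 0 for Slc39a7 and highest for Hsd17b8, while Slc30a4 and Slc39a9 fall into a low and a high level within each group.

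Set against PBS, the NMDA retinas show which of these transcripts differ after the injection. Of the 46 entries tested, 19 changed (41.3%), with 13 higher and 6 lower, at an edgeR adjusted p under 0.05. With scaling by library size only, 15 were higher and 4 lower, and over all genes 4230 were higher and 2324 lower. In the main fit 37.9% of all 16260 genes tested changed, 20.4% higher and 17.5% lower (3315 and 2852 genes). The share of entries that changed was thus near that of all genes, with 28.3% higher and 13.0% lower. In 12 entries (26.1%) the NMDA and PBS libraries did not overlap, 9 with NMDA above and 3 with NMDA below, against 18.1% of all genes. Of the tested entries 27 did not pass, 6 of them with an unadjusted p under 0.05. The median log2 fold change was 0.11 over the 46 entries and 0.01 over all genes, and the median absolute log2 fold change was 0.31 over the 46 entries and 0.19 over all genes.

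Iron had 10 of 14 entries changed (71.4%), 8 higher and 2 lower, and in 8 (57.1%) the groups did not overlap. Zinc had 6 of 26 changed (23.1%), 3 higher and 3 lower, and copper had 3 of 6 changed (50.0%), 2 higher and 1 lower. The difference between the metals was not tested. Of the 10 iron entries, 3 carried the same symbol, Ftl1, and may share reads. Slc30a2, which loads zinc into secretory vesicles, had at most 5 counts in any library, and Slc30a8, the zinc transporter of insulin granules, had 0 in all 12. A count of 0 allows up to 0.0882 to 0.114 CPM in the NMDA libraries and 0.0966 to 0.183 CPM in the PBS libraries, by counting error only. Neither was tested.

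**Figure D3:**
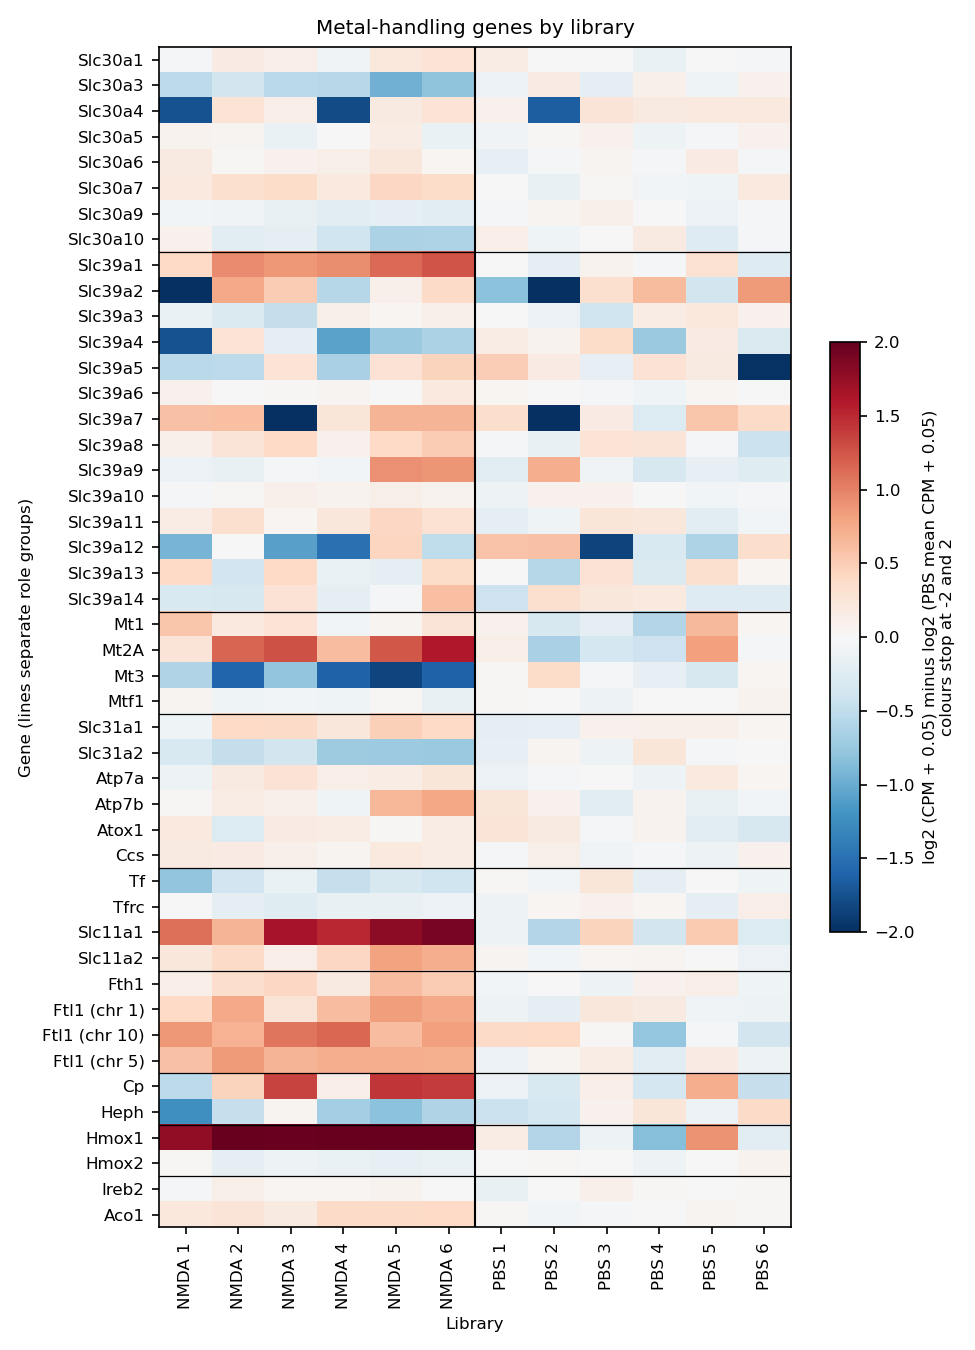
Log2 CPM of each tested entry in every library minus the log2 of its PBS mean (NMDA libraries left, PBS libraries right; red higher, blue lower, colours stop at -2 and 2; lines separate role groups). Hmox1, Slc11a1 and the 4 ferritin entries are red across the NMDA libraries and Mt3 is blue, while Slc39a7 and Slc30a4 are dark in some libraries of both groups.

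Among the metallothioneins, Mt2A rose, Mt3 fell and Mt1 did not pass the test. Mt2A, a metallothionein made in most tissues (ENSRNOG00000043098, chromosome 19, 10832002 to 10832784), had 3.14, 5.92, 6.41, 4.05, 6.28 and 8.04 CPM in NMDA 1 to NMDA 6, against 2.87, 1.65, 2.04, 1.96, 4.64 and 2.58 CPM in PBS 1 to PBS 6. NMDA 1 and NMDA 4 lay below PBS 5, the highest PBS library, so the groups overlapped. The log2 fold change was 1.10 ± 0.27 (SE; edgeR adjusted p = 0.00666). Mt3, the metallothionein of the nervous system (ENSRNOG00000018958, chromosome 19, 10848755 to 10850158), had 6.32, 3.19, 5.54, 3.09, 2.66 and 3.12 CPM in the NMDA libraries, against 9.83, 12.5, 9.34, 8.59, 7.69 and 9.85 CPM in the PBS libraries. Every NMDA library had less than any PBS library, and NMDA 1 and NMDA 3 had the most Mt3 among them. These libraries also had the highest summed ganglion cell markers of their group (499 and 543 CPM). They were likewise the highest of their group for the Müller glia markers Glul (1460 and 1450 CPM), Rlbp1 (194 and 164 CPM) and Dkk3 (1030 and 1260 CPM). Slc1a3 and Aqp4, Müller glia markers that also fell, were highest in NMDA 6 (294 and 114 CPM). Mt3 fell by 1.27 ± 0.22 on the log2 scale (edgeR adjusted p = 0.000683). The part of the ganglion cell, rod and glial markers in this fall was not tested.

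The entry named Mt1 (ENSRNOG00000038047) had 8.31, 6.52, 6.85, 5.48, 5.89 and 6.79 CPM with NMDA, against 6.03, 4.51, 5.01, 3.77, 8.88 and 5.83 CPM with PBS. The NMDA libraries lay inside the PBS range, whose highest value was that of PBS 5. Its log2 fold change was 0.23 ± 0.18 (edgeR adjusted p = 0.362), and it was 0.40 without PBS 5 (adjusted p = 0.048), 0.14 without NMDA 1 (adjusted p = 0.588) and 0.13 without PBS 4 (adjusted p = 0.6). The deposited entry lies on chromosome 17 (74786654 to 74787135) inside Dclre1c, a DNA repair gene, whereas RefSeq places Mt1 on chromosome 19 with Mt2A and Mt3. The Mt1 promoter shown above is from chromosome 19, so it is not the sequence before the chromosome 17 entry. An entry on chromosome 19 under the name AC128848.1 (10826032 to 10827049), also described as metallothionein 1, had 2.83 ± 0.608 CPM with NMDA and 2.35 ± 0.662 CPM with PBS (0.28 ± 0.20, adjusted p = 0.304). Both Mt1 entries summed gave 9.47 ± 1.29 and 8.03 ± 2.30 CPM (NMDA and PBS; 0.24 ± 0.17, adjusted p = 0.288). Mtf1 itself had 51.0 ± 2.71 CPM with NMDA and 52.6 ± 1.96 CPM with PBS (-0.05 ± 0.04, adjusted p = 0.447).

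The make-up of these RNAs differed between groups when set per gene length. As a share of the summed FPKM of Mt1, Mt2A, Mt3 and Mtf1, Mt3 held 21.6% ± 6.60 with NMDA and 47.8% ± 8.06 with PBS (SD, n = 6 each). Mt2A held 29.8% ± 8.43 with NMDA and 12.2% ± 4.06 with PBS, and Mt1 held 28.4% ± 2.49 with NMDA and 21.5% ± 5.00 with PBS. Mt3 had the highest mean share in PBS retinas, while Mt1 and Mt2A in NMDA retinas lay within their spread of each other. The other Mt1 entry, AC128848.1, is not in these shares and had 7.39 ± 1.58 FPKM with NMDA and 5.93 ± 1.69 FPKM with PBS. The summed FPKM of the 4 genes was 49.3 ± 5.70 with NMDA and 53.2 ± 5.26 with PBS.

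Of 8 tested ZnT genes, 1 rose and 2 fell (37.5% changed, against 37.9% of all genes), with a median log2 fold change of -0.07. Slc30a3, which fills synaptic vesicles with zinc (ENSRNOG00000006204, chromosome 6, 25275528 to 25284720), had 5.36, 6.02, 5.31, 5.26, 3.98 and 4.40 CPM in NMDA libraries, against 7.16, 8.70, 6.86, 8.30, 7.30 and 8.26 CPM in PBS libraries. Every NMDA library lay below every PBS library, and the fall was 0.62 on the log2 scale (a log2 fold change of -0.62 ± 0.11, edgeR adjusted p = 0.000869; -0.40 on log2(FPKM + 1), limma adjusted p = 0.000859). The ganglion cell markers fell in the same libraries (206 to 543 CPM with NMDA and 783 to 941 CPM with PBS). So did 6 of 10 rod markers, 5 of 10 Müller glia markers (3 rose) and 4 of 9 pigment epithelium markers, against 17.5% of all genes. The part of any of these cell types in the fall of Slc30a3 was not tested. Slc30a7, a zinc transporter of the Golgi, rose to 18.7 ± 1.23 CPM with NMDA, against 15.0 ± 1.25 CPM with PBS (0.32 ± 0.07, edgeR adjusted p = 0.00234). Slc30a9, known in human cells as a mitochondrial zinc transporter, fell to 154 ± 7.95 CPM with NMDA, against 171 ± 8.85 CPM with PBS (-0.15 ± 0.04, edgeR adjusted p = 0.0166). That call was lost with scaling by library size only (-0.10, adjusted p = 0.0652), in both limma fits of FPKM (adjusted p = 0.0718 and 0.072) and without NMDA 3 and PBS 2 (adjusted p = 0.052).

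Slc30a1, the plasma membrane zinc exporter and a known Mtf1 target, did not pass. It had 34.1, 39.1, 38.4, 33.4, 40.7 and 42.2 CPM with NMDA, against 38.9, 34.8, 35.3, 31.8, 34.9 and 34.4 CPM with PBS (0.12 ± 0.07, edgeR adjusted p = 0.186). The groups overlapped, with PBS 1 above 3 of the NMDA libraries. Slc30a5 and Slc30a6, which form a complex in the early secretory pathway, had log2 fold changes of 0.01 and 0.11 (adjusted p = 0.946 and 0.162), and Slc30a10, known as a manganese exporter, had -0.31 (adjusted p = 0.0742). By FPKM, Slc30a9 was the leading ZnT transcript of both groups, at 43.2% ± 2.79 of the summed ZnT level with NMDA and 45.5% ± 2.41 with PBS, and Slc30a3 held 1.73% ± 0.274 with NMDA and 2.52% ± 0.309 with PBS.

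Of 14 ZIP genes, 1 rose and 13 did not pass (7.14% changed, against 37.9% of all genes), with a median log2 fold change of 0.07. Slc39a1, a zinc importer of the plasma membrane (ENSRNOG00000059463, chromosome 2, 175703441 to 175709058), had 55.4, 81.5, 76.9, 80.6, 92.3 and 101 CPM in NMDA 1 to NMDA 6, against 42.5, 36.9, 44.5, 41.6, 52.3 and 35.3 CPM in PBS 1 to PBS 6. Every NMDA library had more than any PBS library, NMDA 1 being the lowest of its group. It rose 1.93-fold (log2 fold change 0.95 ± 0.13, edgeR adjusted p = 0.000236). By FPKM it held 25.7% ± 3.63 of the summed ZIP level with NMDA and 16.3% ± 1.49 with PBS, the highest mean share of the family with NMDA. With PBS, Slc39a6 held more (22.5% ± 2.10), and Slc39a7, near 0 in PBS 2, held 16.1% ± 8.36. The microglia and macrophage markers also rose (117 to 251 CPM with NMDA and 60.2 to 93.3 CPM with PBS). So did 5 of 8 endothelium and blood markers and 3 of 10 Müller glia markers (5 fell), against 20.4% of all genes. The part of any of these cell types in the rise of Slc39a1 was not tested.

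The 13 other ZIP genes had log2 fold changes of -0.55 to 0.32. Slc39a8 and Slc39a14, which also carry manganese and iron, had 0.31 and 0.05 (edgeR adjusted p = 0.0894 and 0.858). Slc39a11 had 0.25 (adjusted p = 0.0678). Slc39a6 and Slc39a10, a related pair of importers, both had 0.06 (adjusted p = 0.236 and 0.318). Slc39a3 had -0.09 (adjusted p = 0.576). Slc39a13, a transporter of the secretory pathway whose entry overlaps Psmc3, had 0.11 (adjusted p = 0.682). Slc39a2, Slc39a4, Slc39a5 and Slc39a12 were low, at means of 0.734 to 2.15 CPM in either group, with log2 fold changes of 0.08, -0.55, -0.05 and -0.48 and adjusted p of 0.18 or more.

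**Figure D4:**
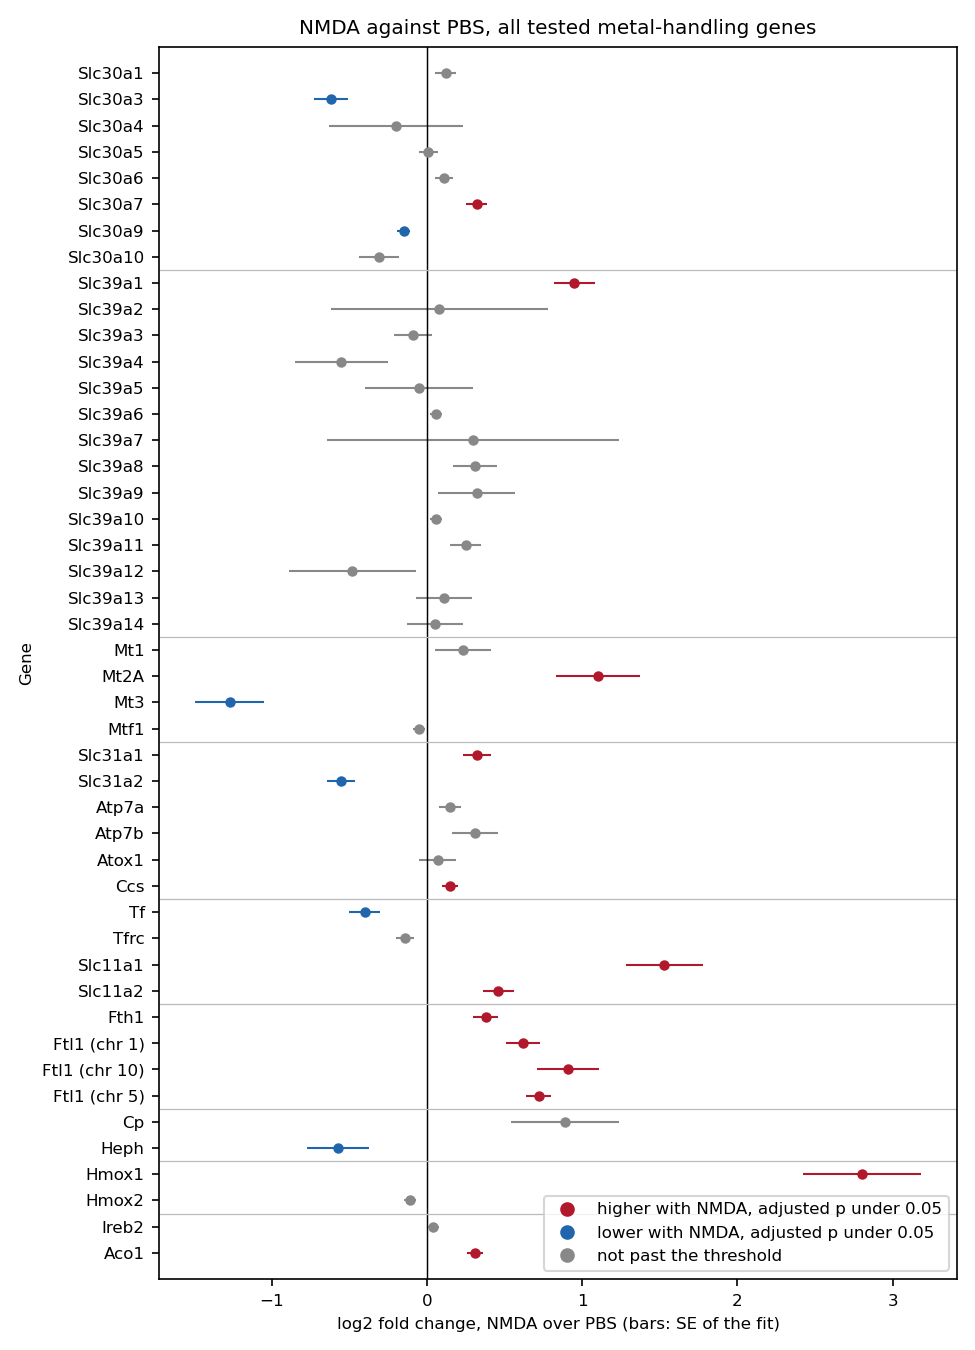
Log2 fold change of NMDA over PBS for every tested entry (points; bars are the SE of the edgeR fit; red higher and blue lower at an adjusted p under 0.05, grey not past it; lines separate role groups). Hmox1 lies furthest right at 2.80 and Mt3 furthest left at -1.27, and all 4 ferritin entries lie right of 0.

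Of 6 copper genes, 2 rose and 1 fell (50.0% changed, against 37.9% of all genes). Slc31a2, which is related to the copper importer and sits in endosomes and lysosomes, had 73.2, 65.0, 70.3, 55.4, 54.7 and 54.2 CPM in NMDA libraries, against 81.0, 94.5, 84.4, 107, 88.5 and 90.0 CPM in PBS libraries. Every NMDA library lay below every PBS library (-0.55 ± 0.09, edgeR adjusted p = 0.000561). Slc31a1, the copper importer of the plasma membrane, rose to 44.1 ± 5.81 CPM with NMDA, against 35.4 ± 3.23 CPM with PBS (0.32 ± 0.09, edgeR adjusted p = 0.0145; adjusted p = 0.0584 without NMDA 3 and PBS 2). Both genes lie on chromosome 5, where the deposited intervals are 75738024 to 75748542 for Slc31a2 and 75814743 to 75844228 for Slc31a1. The interval of Slc31a1 overlaps that of Fkbp15.

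Ccs, the chaperone that loads copper into the superoxide dismutase Sod1, had 44.4 ± 1.67 CPM with NMDA and 40.2 ± 2.49 CPM with PBS and passed narrowly (0.15 ± 0.05, edgeR adjusted p = 0.0271). The call was lost when any of NMDA 1, NMDA 2, NMDA 5, NMDA 6, PBS 1, PBS 3, PBS 4 or PBS 5 was left out (adjusted p = 0.0501 to 0.0696), with no filter on low counts (0.058), without NMDA 3 and PBS 5 (0.0572) and with a pigment epithelium covariate (0.142). Atp7a, the copper pump of most tissues, had 15.2, 18.5, 20.0, 17.9, 18.2 and 19.5 CPM with NMDA, against 15.1, 16.2, 16.5, 15.3, 18.7 and 16.8 CPM with PBS (0.15 ± 0.07, edgeR adjusted p = 0.129). It passed without NMDA 1 (0.18, adjusted p = 0.0312), with limma voom and quality weights (0.17, adjusted p = 0.0485) and with a pigment epithelium covariate (0.25, adjusted p = 0.0153). In the other 22 of 25 alternatives Atp7a did not pass. Atp7b, its relative known for copper export in liver, had 0.31 ± 0.15 (adjusted p = 0.126), and Atox1, the chaperone of both pumps, had 0.07 ± 0.12 (adjusted p = 0.675). By FPKM, Ccs held 33.8% ± 1.31 of the 6 copper genes with NMDA and 28.9% ± 1.72 with PBS, and Slc31a2 held 29.1% ± 3.33 with NMDA and 40.2% ± 2.41 with PBS.

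Of the iron genes, Hmox1 had the largest log2 fold change of the 46 entries tested. Hmox1, the inducible haem oxygenase that frees iron from haem (ENSRNOG00000014117, chromosome 19, 13467244 to 13474079), had 6.28, 10.8, 7.20, 12.6, 14.4 and 23.8 CPM in NMDA 1 to NMDA 6, against 2.01, 1.18, 1.67, 0.979, 3.41 and 1.55 CPM in PBS 1 to PBS 6. The lowest NMDA library lay above the highest PBS library, and NMDA 6 was the highest of all. Hmox1 rose 6.95-fold (log2 fold change 2.80 ± 0.38, edgeR adjusted p = 0.000213). Hmox2, its constitutive relative, had 47.7 ± 2.53 CPM with NMDA and 51.7 ± 1.97 CPM with PBS (-0.11 ± 0.04, adjusted p = 0.0543). By FPKM, Hmox1 thus made up 42.8% ± 12.3 of both haem oxygenases with NMDA and 9.55% ± 4.01 with PBS.

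Slc11a1, the metal transporter of macrophage phagosomes (ENSRNOG00000014956, chromosome 9, 75957316 to 75968101), had 3.91, 2.90, 5.72, 5.19, 6.32 and 6.86 CPM in NMDA libraries, against 1.68, 1.18, 2.47, 1.38, 2.62 and 1.48 CPM in PBS libraries. The groups did not overlap, and NMDA 2 was the lowest of its group, as it was for the summed microglia and macrophage markers. It rose 2.88-fold (log2 fold change 1.53 ± 0.25, edgeR adjusted p = 0.000517; 0.84 on log2(FPKM + 1)). All 10 microglia and macrophage markers rose beside Hmox1 and Slc11a1, with sums of 117 to 251 CPM in NMDA libraries and 60.2 to 93.3 CPM in PBS libraries. Hmox1 was lowest in NMDA 1 (6.28 CPM), not in NMDA 2 (10.8 CPM), while NMDA 6 was highest for both genes and for the marker sum. Of 8 endothelium and blood markers 5 rose as well, and of 10 Müller glia markers 3 rose and 5 fell. The part of any of these markers in both rises was not tested. Gfap, the filament gene of stressed retinal glia, had 256 to 743 CPM with NMDA and 61.5 to 246 CPM with PBS (1.50 ± 0.35, edgeR adjusted p = 0.00558).

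Slc11a2, which carries iron out of endosomes (ENSRNOG00000019550, chromosome 7, 131503081 to 131540145), had 121, 135, 113, 137, 179 and 170 CPM with NMDA, against 107, 99.5, 106, 107, 104 and 95.3 CPM with PBS. The NMDA libraries were all above the highest PBS library, NMDA 5 and NMDA 6 by the widest margin (0.46 ± 0.10, edgeR adjusted p = 0.00334). Tf, which encodes the iron carrier transferrin (ENSRNOG00000030625, chromosome 8, 103767995 to 103816511), had 140, 187, 222, 177, 194 and 184 CPM with NMDA, against 247, 235, 286, 215, 245 and 230 CPM with PBS. NMDA 3 lay above PBS 4, so the groups overlapped. Tf fell by 0.40 on the log2 scale (-0.40 ± 0.10, edgeR adjusted p = 0.00526; -0.25 with a pigment epithelium covariate, adjusted p = 0.0228). The deposited interval of Rab6b, a vesicle transport gene that fell (-0.84 ± 0.12, edgeR adjusted p = 0.000324), overlaps that of Tf, and reads of overlapping genes cannot be told apart where the strand setting is not given. Of 9 pigment epithelium markers 4 fell as well (sums of 40.4 to 715 CPM with NMDA and 163 to 528 CPM with PBS), against 17.5% of all genes. The covariate, a score from all of these markers, those that fell and those that did not, was positive in every PBS library (0.114 to 1.27). It was negative in every NMDA library but NMDA 3 (1.36), so the fit cannot separate pigment epithelium from the injection. The part of these markers in the fall of Tf was not tested.

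Tfrc, the transferrin receptor (ENSRNOG00000001766, chromosome 11, 68163413 to 68185257), had 126, 109, 106, 113, 113 and 115 CPM with NMDA, against 116, 128, 132, 128, 110 and 137 CPM with PBS. All NMDA libraries lay below the PBS median, but the groups overlapped and the edgeR test was not passed (-0.14 ± 0.06, adjusted p = 0.0709). It passed without NMDA 1 (-0.18, adjusted p = 0.0189), without PBS 5 (-0.17, adjusted p = 0.0208), without NMDA 3 and PBS 5 (-0.15, adjusted p = 0.0397), with DESeq2 (adjusted p = 0.0421), with limma voom and quality weights (adjusted p = 0.0292) and with a pigment epithelium covariate (-0.21, adjusted p = 0.012). In the other 19 of 25 alternatives Tfrc did not pass. It was -0.09 with scaling by library size only (edgeR adjusted p = 0.212). The limma fits of log2(FPKM + 1) and log2(FPKM + 0.1) gave -0.08 and -0.09 (limma adjusted p = 0.23 in both). By FPKM, Tf held 47.0% ± 4.78 of the 4 uptake genes with NMDA and 57.0% ± 2.37 with PBS, and Slc11a2 held 26.1% ± 3.53 with NMDA and 17.4% ± 1.17 with PBS.

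All 4 ferritin entries rose, and in each the NMDA libraries lay above the PBS libraries. Fth1, the heavy chain that oxidises iron as it enters the shell (ENSRNOG00000022619, chromosome 1, 206627103 to 206725424), had 312, 362, 379, 323, 434 and 406 CPM in NMDA 1 to NMDA 6, against 272, 285, 264, 303, 311 and 267 CPM in PBS 1 to PBS 6. The margin was narrow, with NMDA 1 at 312 CPM next to PBS 5 at 311 CPM (0.38 ± 0.08, edgeR adjusted p = 0.0023). The interval of Fth1 in the table is long and overlaps Fads2, Fads3, Rab3il1 and Best1, of which Fads3 and Rab3il1 also rose (0.37 and 0.47, edgeR adjusted p = 0.0274 and 0.0285). Those 2 genes averaged 25.8 and 7.30 CPM with NMDA, against 19.9 and 5.27 CPM with PBS.

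Ftl1, the light chain that aids the iron core of the shell, is held by 3 entries. The entry on chromosome 1 (ENSRNOG00000064385, 95936387 to 95939725), which overlaps the cell death gene Bax, had 70.3, 90.7, 63.7, 82.3, 95.7 and 90.8 CPM in NMDA libraries, against 50.1, 46.6, 62.8, 60.3, 51.1 and 49.9 CPM in PBS libraries. NMDA 3 and PBS 3 lay next to each other at 63.7 and 62.8 CPM (0.62 ± 0.11, edgeR adjusted p = 0.000759). RefSeq places Ftl1 on chromosome 1 as well. The entry on chromosome 5 (ENSRNOG00000031506, 144647541 to 144648477) had 13.3, 15.9, 14.1, 14.7, 14.6 and 14.5 CPM with NMDA, against 8.14, 9.21, 9.83, 7.58, 9.87 and 8.26 CPM with PBS (0.72 ± 0.08, edgeR adjusted p = 5.07e-05). That on chromosome 10 (ENSRNOG00000020843, 44257727 to 44258273) had 2.83, 2.51, 3.28, 3.46, 2.37 and 2.74 CPM with NMDA, against 2.01, 2.04, 1.55, 0.870, 1.51 and 1.18 CPM with PBS (0.91 ± 0.20, edgeR adjusted p = 0.00334).

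In total the table held 10 entries described as ferritin light chain or like it, and reads of copies alike in sequence could be split between them. Their sum was 156, 184, 176, 216, 224 and 185 CPM in NMDA 1 to NMDA 6, against 131, 99.2, 138, 112, 109 and 114 CPM in PBS 1 to PBS 6. The groups did not overlap, and the sum rose by 0.70 ± 0.10 on the log2 scale (edgeR adjusted p = 0.000226). One of the 10, on chromosome 6, varied from 0.693 to 35.2 CPM in steps across both groups. By FPKM, the 4 ferritin entries chosen by name summed to 248 ± 30.7 with NMDA and 177 ± 11.0 with PBS, of which Fth1 held 79.8% ± 1.91 with NMDA and 83.1% ± 1.55 with PBS. The other light chain entries are not in these shares, which therefore do not give the balance of heavy and light chains. An unnamed one on chromosome 13 had 61.9 ± 5.87 FPKM with NMDA and 33.1 ± 3.23 FPKM with PBS. That was more than Ftl1 on chromosome 1, at 26.9 ± 4.48 FPKM with NMDA and 16.9 ± 2.1 FPKM with PBS. In the same libraries all 10 microglia and macrophage markers rose (sums of 117 to 251 CPM with NMDA and 60.2 to 93.3 CPM with PBS), as did 5 of 8 endothelium and blood markers (293 to 418 CPM with NMDA and 203 to 287 CPM with PBS). Of 10 Müller glia markers 3 rose, among them Vim (1.46 ± 0.16) and Crym (0.93 ± 0.17), and 5 fell. Over all genes 20.4% rose. The part of any of these cell types in the ferritin rise was not tested.

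**Figure D5:**
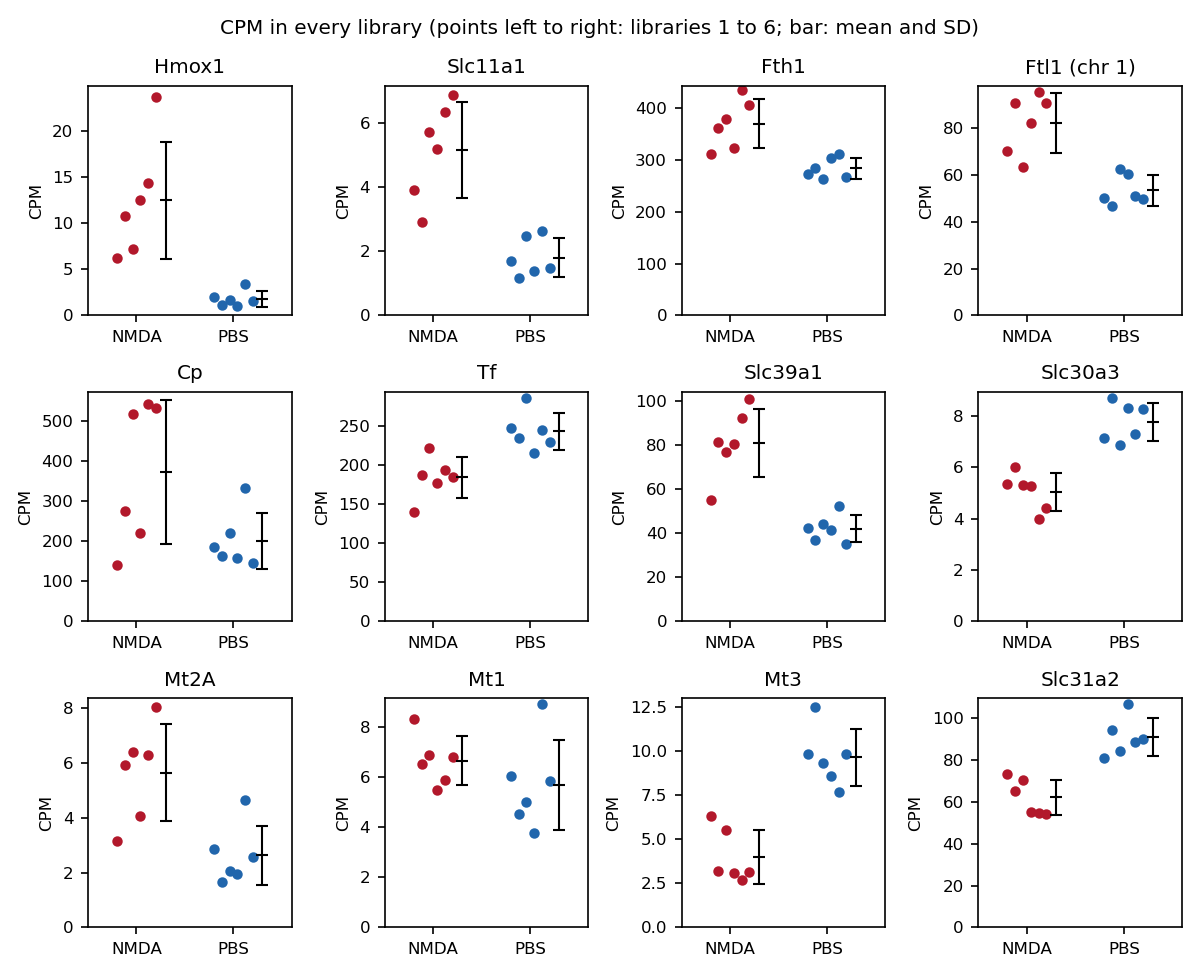
CPM of 12 genes in every library (points left to right are libraries 1 to 6 of each group, NMDA in red and PBS in blue; the bar is the mean with its SD). All NMDA points of Hmox1, Slc11a1, Fth1, Ftl1 on chromosome 1 and Slc39a1 lie above the PBS points, all of Slc30a3, Mt3 and Slc31a2 lie below, and those of Cp, Tf, Mt2A and Mt1 overlap.

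The ferroxidases, which oxidise iron so that transferrin can bind it, did not move together. Cp, which encodes ceruloplasmin (ENSRNOG00000011913, chromosome 2, 102439624 to 102498075), had 141, 276, 518, 222, 543 and 533 CPM with NMDA, against 186, 163, 222, 159, 334 and 146 CPM with PBS. NMDA 3, NMDA 5 and NMDA 6 lay above every PBS library, and NMDA 1 lay below all of them. The test was not passed (0.89 ± 0.35, edgeR adjusted p = 0.0641), but it was without NMDA 1 (1.04, adjusted p = 0.0154), without PBS 5 (1.09, adjusted p = 0.0299), with DESeq2 (adjusted p = 0.0329), with limma voom and quality weights (adjusted p = 0.0306) and with a pigment epithelium covariate (1.38, adjusted p = 0.0101). In the other 20 of 25 alternatives Cp did not pass. Its log2 fold change was 0.71 to 1.38 over all 25. Heph, which encodes the membrane-bound hephaestin, had 8.04, 13.7, 19.5, 11.7, 10.6 and 12.4 CPM with NMDA, against 14.0, 14.7, 19.9, 22.3, 17.4 and 24.4 CPM with PBS. NMDA 3 stood inside the PBS range, and the fall passed narrowly (-0.57 ± 0.20, edgeR adjusted p = 0.0402). The call was lost when any of NMDA 1, NMDA 2, NMDA 4, NMDA 5, NMDA 6, PBS 3, PBS 4, PBS 5 or PBS 6 was left out (adjusted p = 0.0515 to 0.089) and with scaling by library size only (adjusted p = 0.0572), and with a pigment epithelium covariate the log2 fold change was -0.35 (adjusted p = 0.164). By FPKM, Heph held 3.12% ± 1.20 of both ferroxidases with NMDA and 7.59% ± 2.94 with PBS.

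Of the iron regulatory proteins, Aco1, the cytosolic aconitase that becomes an mRNA-binding protein when its iron-sulphur cluster is lost, rose to 66.1 ± 4.43 CPM with NMDA, against 53.4 ± 1.38 CPM with PBS (0.31 ± 0.05, edgeR adjusted p = 0.000292). Its NMDA libraries, at 60.7 to 70.4 CPM, lay above the PBS libraries, at 51.5 to 55.2 CPM. Ireb2, which encodes the other regulatory protein, had 81.2 ± 2.85 CPM with NMDA and 78.8 ± 4.28 CPM with PBS (0.04 ± 0.04, adjusted p = 0.45).

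Other genes of the same pathways were read from 5 lists. Of 5 tested other zinc genes, 2 fell and the other 3 did not pass (median log2 fold change 0.04). Tmem163, which binds and exports zinc in neurons, fell to 7.05 ± 3.73 CPM with NMDA, against 19.3 ± 2.96 CPM with PBS (-1.46 ± 0.29, edgeR adjusted p = 0.00215). Trpm2, a calcium channel opened by oxidative stress, fell to 41.1 ± 5.71 CPM with NMDA, against 61.8 ± 13.5 CPM with PBS (-0.59 ± 0.14, adjusted p = 0.00567). Of 19 other copper genes, 1 rose and 4 fell, with a median of 0.00. Sod1, which receives copper from Ccs, rose (0.20 ± 0.06, adjusted p = 0.0186). Those that fell included Xiap, a caspase inhibitor that also takes part in copper balance (-0.42 ± 0.08, adjusted p = 0.00148), Lox, a copper enzyme of the extracellular matrix (-0.95 ± 0.26, adjusted p = 0.0108), and Steap3, a metalloreductase (-0.41 ± 0.14, adjusted p = 0.0352).

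Of 24 tested other iron uptake and storage genes, 3 rose and 3 fell, with a median log2 fold change of 0.09. Lcn2, which binds iron-carrying siderophores, had 137, 221, 188, 172, 264 and 322 CPM with NMDA, against 55.6, 16.2, 46.4, 11.0, 122 and 15.0 CPM with PBS. PBS 5 stood nearest to the NMDA libraries (2.29 ± 0.56, edgeR adjusted p = 0.00736). Pcbp1, which hands iron to ferritin, rose (0.19 ± 0.04, adjusted p = 0.00174), as did Slc25a37, the mitochondrial iron importer (0.38 ± 0.11, adjusted p = 0.0165). Tfr2, a relative of the transferrin receptor, fell (-0.58 ± 0.13, adjusted p = 0.00311).

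Of 22 genes of haem synthesis, transport and breakdown, 4 rose and the other 18 did not pass (median 0.02), 3 of them with an unadjusted p under 0.05. Hebp1, a haem-binding protein gene, rose (1.27 ± 0.24, edgeR adjusted p = 0.00132). The synthesis enzymes Fech (0.17 ± 0.05, adjusted p = 0.0147) and Urod (0.13 ± 0.05, adjusted p = 0.0362) rose as well. Of 23 iron-sulphur cluster genes, 5 rose and 1 fell, with a median of 0.08. Nubp2 (0.34 ± 0.04, adjusted p = 0.000105) and Bola2 (0.62 ± 0.09, adjusted p = 0.000325), which serve cluster assembly in the cytosol, rose. Mms19, which targets clusters to DNA enzymes, fell (-0.16 ± 0.04, adjusted p = 0.00725). The share changed was 40.0% of the other zinc list, 26.3% of the other copper list, 25.0% of the other iron list, 18.2% of the haem list and 26.1% of the iron-sulphur list, against 37.9% of all genes.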

How the data were processed

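Total RNA of 12 rat retinas was sequenced, 6 with NMDA and 6 with PBS. The authors deposited 1 table with whole read counts per gene, not scaled, and FPKM (reads scaled by gene length and library total), per the file headers. Bowtie2, RSEM 1.3.1 and DESeq2 1.4.5 are named in the submitters' processing notes without roles. RSEM gives estimates, so the counts may have been rounded. Genome build, strand setting and treatment of reads with more than 1 match are not given in the sources used here. Of the deposited entries, 11 chosen genes overlap another entry. Nothing beyond the rat numbers describes the samples, and no pair of libraries had the same counts.

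Counts of 16260 genes (filterByExpr, count minimum 10, total minimum 15) were scaled by TMM and tested two-sided with edgeR 4.0.16 (robust quasi-likelihood, group as the only term) in R 4.3.3. P-values were adjusted by Benjamini-Hochberg over all genes, with a threshold of 0.05, and the script was tested on simulated data. Levels are TMM-scaled CPM, with the SD over libraries, and FPKM where genes are compared. Shares are of FPKM summed over a group of genes in each library.

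The chosen genes and lists were picked with earlier results of these data known. Values in every library are given for genes past the threshold with an absolute log2 fold change of at least 0.58 and for Mt1, Mt2A, Mt3, Slc30a1, Atp7a, Tf, Tfrc, Fth1, Ftl1, Cp, Slc11a1 and Hmox1 in any case, and for Slc31a2, Heph, Slc11a2, Slc39a7, Slc30a4 and Slc39a9 by choice after their values were seen. Up to 4 genes with the smallest adjusted p are named from each other list, except genes that are not reported here. Alternatives were other scalings, filters, DESeq2 1.42.0, limma 3.58.1, covariates and libraries left out.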

Additional observations from a re-analysis of the deposited data

Results flagged for a closer look

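Of 92 pairs of a tested entry and a group, 9 held a library that stood far from the others by Dixon's test (the gap to the nearest library, as a share of the range of the group, in log2 CPM). Chance flags about 1 in 20 groups. Of the 9, 4 were PBS 2 and belonged to zinc transporters. Slc39a7 was at 0.029 CPM in NMDA 3 (next 65.0 CPM) and at 0.118 CPM in PBS 2 (next 45.3 CPM). Slc30a4 was at 22.1 CPM in PBS 2 (next 73.7 CPM), and Slc39a9 at 59.3 CPM in PBS 2 (next 34.2 CPM). Slc39a2 was at 0.0 CPM in NMDA 1 and at 0.0 CPM in PBS 2, where the next libraries had 0.478 and 0.396 CPM. Slc39a5 was at 0.406 CPM in PBS 6 (next 1.55 CPM), Atox1 at 7.76 CPM in NMDA 2 (next 9.54 CPM), and Hmox2 at 48.0 CPM in PBS 4 (next 51.7 CPM).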

How the results depend on the processing

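The counts of 13 higher and 6 lower entries ranged from 9 to 17 higher and 4 to 9 lower over 25 alternatives. Over all genes the main fit had 3315 higher and 2852 lower. The chosen entries had 15 and 4 with scaling by library size only (4230 and 2324 over all genes). They had 14 and 9 with DESeq2 (3334 and 3217), and 17 and 9 with limma voom and quality weights (3747 and 3356). With at least 10 CPM in 6 libraries, where low entries such as Mt2A and Mt3 were not tested, they had 9 and 4 (2395 and 2170). With 1 library left out they had 12 to 14 and 5 to 8 (2832 to 3397 and 2415 to 3232). With the replicate block they were 13 and 7, and 2948 and 2645 over all genes; only 2 of 6 same-numbered pairs deviated together (correlation over 0.1) and no NMDA library was closest to its own number, so the numbers were not taken as pairs. Over the 27 genes followed, 621 values kept direction and call, 27 lost the call, 16 gained it and 2 reversed; 17 genes did not change in any alternative in which they could be fitted. With a pigment epithelium score as covariate, Slc30a4 reversed to 0.12 and Slc39a7 to -0.86 (neither passed there), and the cause was not tested. That score was positive in all PBS libraries and, among the NMDA libraries, in NMDA 3 only. For every gene, a fit with it thus cannot separate pigment epithelium from the injection. The losses were of Ccs, Heph, Slc30a9 and Slc31a1. Slc30a2 and Slc30a8 had too few counts to be tested. The fits without NMDA 3 and PBS 2 and with copies summed were chosen after the data were seen.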
